A study of Mus musculus with 6 samples.

Results

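The 9 genes described here are stem and progenitor regulators of the blood system: Kit, Slamf1, Cd48, Hoxa9, Meis1, Runx1, Msi2, Myb and Sox4. They were chosen by name, and all 9 of them were found among the 13007 genes of the count table and were among the 12427 genes tested. The study sequenced poly-A RNA from sorted mouse bone marrow cells of strain C57BL/6 to find how expression differs between acute erythroid leukemia (AEL), a leukemia of red cell precursors, and normal erythroid precursors (NC). Each group had 3 libraries. The AEL libraries came from marrow leukemic cells labelled Trp53-/- and ERG-expressing: the cells lack the tumor suppressor p53 by label, were transduced with an ERG construct that also expresses GFP, and were sorted as GFP-positive. ERG is a transcription factor of the ETS family. The NC libraries are labelled WT and were sorted from normal marrow stained with antibodies to CD71, through which red cell precursors take up iron, and to Ter119, found on maturing red cells. Mutations of SETBP1 and ASXL1 are named in the tissue label of every library, which for the NC libraries contradicts the genotype WT, and the labels do not settle it. Neither the promoter of the ERG construct, nor the age of the animals, nor whether replicates came from separate animals is given in the sources used here, so p-values measure only the spread between these samples.

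Blood stem cells and early progenitors are recognised by surface proteins and kept in their state by a small circuit of transcription factors. KIT, the receptor for stem cell factor, carries survival and growth signals into stem cells, early red cell progenitors and mast cells. SLAMF1 (CD150) and CD48 belong to the SLAM family of immune receptors, and the presence of the first without the second marks mouse stem cells. HOXA9 and its partner MEIS1 drive self-renewal in stem cells and in many myeloid leukemias, RUNX1 and MYB are needed for definitive blood formation, the RNA-binding protein MSI2 sustains stem cell division, and SOX4 acts in lymphoid progenitors and leukemias.

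Library totals ran from 8171676 to 9945330 counts. The AEL libraries varied more among themselves than the NC libraries (biological coefficient of variation 44.4% against 9.16%). Erg, the mouse gene that reads of an introduced ERG could also count toward, stood at 790, 556 and 684 CPM (counts scaled to an equal library total) in AEL replicates 1, 2 and 3 and at 4.38 to 8.52 CPM in NC. Trp53 was counted in the libraries labelled Trp53-/- at 976 to 1171 CPM, against 162 to 177 CPM in NC, which does not check the genotype because a count per gene also takes reads outside a deleted part. Erythroid markers were present in both groups: the 10 listed summed to 7041 to 12692 CPM in AEL and to 39059 to 51290 CPM in NC. By the test given below 1 of them was higher and 7 lower in AEL, beside 23.9% and 29.0% of all genes. Car1 went against the sum, at 3682 to 3941 CPM in AEL and 1238 to 1590 CPM in NC. Slc4a1 and Alas2 were at 4.30 to 344 and 24.1 to 166 CPM in AEL, against 3398 to 4578 and 731 to 1007 CPM in NC. Summed markers of neutrophils, monocytes and B cell precursors were lower in every AEL library than in any NC library. The 10 neutrophil genes summed to 17.4 to 1032 CPM in AEL and 7450 to 8682 CPM in NC, the 10 monocyte and macrophage genes to 27.6 to 70.9 against 2291 to 2734 CPM, and the 10 B cell precursor genes to 1.80 to 2.74 against 229.6 to 278.5 CPM. In such bulk samples fewer cells of a type and less RNA per cell cannot be told apart, and, since each group had its own sort, neither can sort and leukemia.

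Of the 9 genes, Kit, Slamf1, Runx1, Myb and Msi2 were higher in AEL, Hoxa9 was lower, and Cd48, Meis1 and Sox4 did not pass the test (edgeR quasi-likelihood test, Benjamini-Hochberg adjusted p under 0.05 over all 12427 genes). Of all genes tested 52.8% passed, 23.9% as higher and 29.0% as lower. The libraries of the groups did not overlap for 6 of the 9 genes, beside 66.0% of all genes tested (29.9% higher and 36.1% lower). Among the 6, Slamf1 reached 1 CPM in AEL alone and Hoxa9 in NC alone. The filter on low values thus fixed the direction of Slamf1 and Hoxa9 in advance. The median log2 fold change of AEL over NC was 0.94 over the 9 genes and -0.05 over all genes tested. With library totals in place of the TMM scaling factors, the median of all genes became 0.14 and the share of higher genes among those called went from 45.2% to 55.2%, but the calls and directions of the 9 genes did not change.

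**Figure D1:**
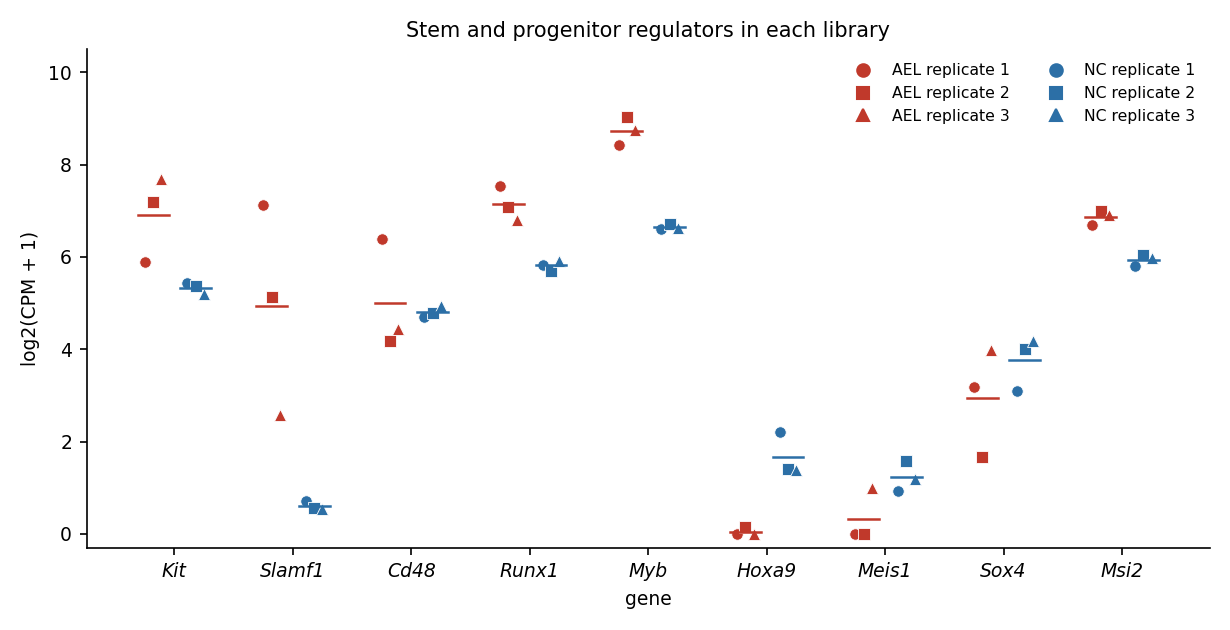
Level of each gene in each of the 6 libraries, as log2(CPM + 1). Points are libraries (red AEL, blue NC; circle, square and triangle are replicates 1, 2 and 3) and short lines are group means. The AEL points of Slamf1 spread from 4.94 to 139 CPM and those of Kit from 58.1 to 205 CPM, all above NC, while the AEL points of Cd48, Meis1 and Sox4 lie on both sides of NC points.

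Among the surface receptors, Kit (chromosome 5, 75574916 to 75656722, plus strand, GRCm38) was at 58.1, 145 and 205 CPM in AEL replicates 1, 2 and 3 and at 42.3, 40.3 and 35.9 CPM in NC replicates 1, 2 and 3. Every AEL library lay above every NC library, but AEL replicate 1 was only 1.47 times the NC mean, where replicates 2 and 3 were 3.67 and 5.19 times that mean. The log2 fold change was 1.78 (SE 0.42, edgeR adjusted p = 0.0118). This call ended without NC replicate 1, 2 or 3 (edgeR adjusted p = 0.0552, 0.0564 and 0.0626), and with the same 12427 genes tested, a setting chosen after seeing the data, it ended only without NC replicate 3 (0.0436, 0.0456 and 0.0523). Mast cells also carry KIT. Their list, with basophils and eosinophils, summed to 8.55, 14.1 and 61.2 CPM in the AEL libraries and to 106 to 127 CPM in NC. Within AEL the sum and Kit were both lowest in replicate 1 and highest in replicate 3. Of 9 such markers found, Epx was at 0 in every AEL library. Basophil and eosinophil genes (Prss34, Mcpt8 and Prg2) were at 0 to 0.977 CPM in AEL and 11.9 to 43.0 CPM in NC. In AEL replicate 3, where Kit was highest, the IgE receptor chains Fcer1a and Ms4a2 were at 7.23 and 6.31 CPM, above the 1.30 to 1.68 and 2.19 to 3.43 CPM of NC. The mast cell protease Cma1 was at 2.36, 0.109 and 3.11 CPM in AEL replicates 1, 2 and 3 and at 0 in every NC library, so it did not follow the order of Kit. Cpa3, another protease, was at 0.113, 0.326 and 5.21 CPM in AEL and 3.57 to 5.55 CPM in NC. Most of the sum in AEL replicate 3 was Hdc, at 38.2 CPM, which lay within its NC range of 31.1 to 41.6 CPM. The part of such cells in the level of Kit was not tested.

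Slamf1 (chromosome 1, 171767127 to 171801184, plus strand) showed the widest range of the higher genes. Its level was 139, 33.9 and 4.94 CPM in AEL replicates 1, 2 and 3, from 1235, 312 and 54 counts. In NC it was 0.645, 0.472 and 0.461 CPM, from 5, 4 and 4 counts. The AEL libraries thus stood at 264, 64.4 and 9.39 times the NC mean, and they differed 28.1-fold among themselves. Slamf1 passed the filter on low values through AEL alone, since no NC library reached 1 CPM, so it had to be higher in AEL to be there at all. The fitted log2 fold change was 6.78 (SE 1.36, edgeR adjusted p = 0.00627). Without AEL replicate 1, 2 or 3 Slamf1 no longer passed the filter. With the same genes tested the log2 fold change was 5.23 without AEL replicate 1 (edgeR adjusted p = 0.00429), where its direction was again fixed by the filter of all libraries. Megakaryocytes share several surface genes with stem cells: the 8 megakaryocyte markers found summed to 446, 178 and 202 CPM in AEL and to 156 to 179 CPM in NC, and AEL replicate 1 was highest in both that sum and Slamf1. In AEL replicate 1 the integrin chain gene Itga2b alone was at 244 CPM of that sum. Of the 8 markers 3 were higher and 4 lower in AEL, beside 23.9% and 29.0% of all genes. Ppbp, a platelet chemokine, was at 0 in every AEL library, and Gp1ba, a chain of the von Willebrand factor receptor, was at 59.1 to 89.0 CPM in AEL against 2.07 to 3.22 CPM in NC. Gp9, in contrast, was at 1.92 to 5.43 CPM in AEL against 40.3 to 52.1 CPM in NC. The part of megakaryocytes in the level of Slamf1 was not tested.

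Cd48 (chromosome 1, 171682009 to 171705258, plus strand), the neighbour of Slamf1 in the SLAM gene cluster, did not pass. The AEL libraries held 83.4, 17.1 and 20.8 CPM and the NC libraries 25.0, 26.6 and 29.6 CPM. AEL replicate 1 lay above all NC libraries and AEL replicates 2 and 3 lay below them. The fitted log2 fold change was 0.58 (SE 0.59, edgeR adjusted p = 0.442), and it turned to -0.41 without AEL replicate 1 (edgeR adjusted p = 0.127). Cd48 is carried by most leukocytes, whose summed markers were lower in AEL as given above. Not each marker was: Cx3cr1, a chemokine receptor of monocytes, was at 22.1, 3.91 and 3.29 CPM in AEL and 4.25 to 8.50 CPM in NC. In AEL replicate 1 it made up most of the monocyte and macrophage sum of 27.6 CPM. The other markers of that list were at 0 to 2.25 CPM in AEL replicate 1 and at 27.3 CPM or more in NC, so the list as a whole was not high there. The part of such cells in the level of Cd48 was not tested. Per kilobase of exon, Cd48 was 3.11 and 2.62 times as abundant as Slamf1 in AEL replicates 1 and 2, 21.8 times in AEL replicate 3 and 201 to 333 times in NC. Cd48 thus exceeded Slamf1 in each of the 6 libraries on that scale, and the gap was narrower in every AEL library than in any NC library. The NC ratios rest on 5, 4 and 4 counts of Slamf1. Because the filter fixed the direction of Slamf1, the narrower gap is not a separate result.

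**Figure D2:**
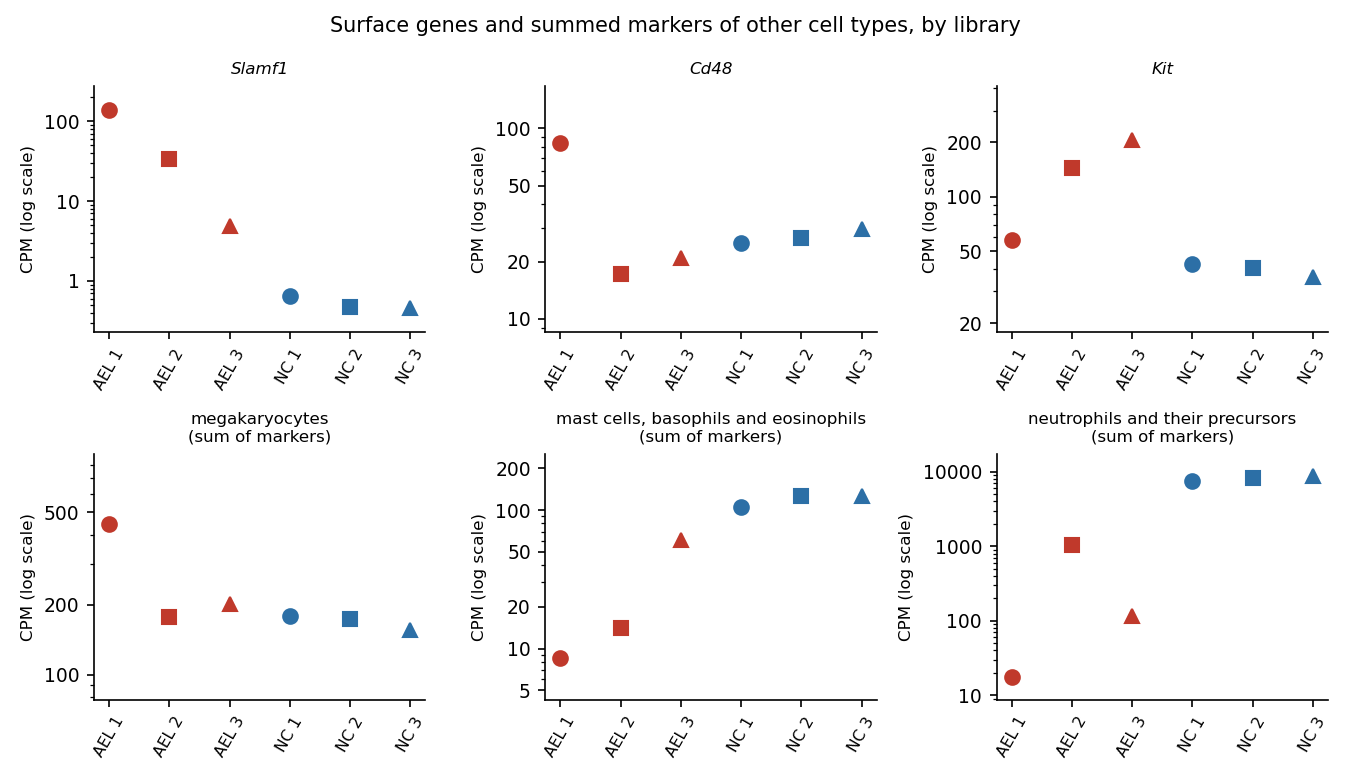
Level of Slamf1, Cd48 and Kit (top) and summed level of the markers of megakaryocytes, of mast cells, basophils and eosinophils, and of neutrophils (bottom) in each library, in CPM on log axes (red AEL, blue NC). Slamf1, Cd48 and the megakaryocyte sum are each highest in AEL replicate 1, Kit is highest in AEL replicate 3, and the neutrophil sum is at most 1032 CPM in AEL and at least 7450 CPM in NC.

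Since the AEL cells carry introduced ERG, the promoters of both receptors that rose were read for the ETS core letters GGAA. The windows are the 250 bases before each RefSeq start site (GRCm38.p6), and all 9 genes had at least 1 window. Capitals mark GGAA, which reads TTCC when it lies on the other strand, and printing stops where the GENCODE annotation places the first exon. GGAA occurred in 93.4% of 32851 promoter windows of this length, with a median of 3 matches, so its presence sets no gene apart. The Slamf1 window held 5 matches and the Kit window 1. The stretches shown are chr1:171766882-171767126 for Slamf1 and chr5:75574737-75574915 for Kit, both on the plus strand.
Slamf1: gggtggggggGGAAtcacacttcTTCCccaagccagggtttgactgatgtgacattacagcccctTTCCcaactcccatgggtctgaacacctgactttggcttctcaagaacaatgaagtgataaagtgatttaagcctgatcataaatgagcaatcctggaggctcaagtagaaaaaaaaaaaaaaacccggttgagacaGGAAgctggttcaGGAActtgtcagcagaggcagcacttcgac
Kit: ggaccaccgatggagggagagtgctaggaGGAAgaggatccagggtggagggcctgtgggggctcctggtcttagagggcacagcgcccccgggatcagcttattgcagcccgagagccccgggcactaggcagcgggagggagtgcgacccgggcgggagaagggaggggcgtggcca
The longer letters CCGGAA, found in 12.0% of all windows, were in neither, and nor were AGATAA (read by the erythroid factor GATA1, 9.99% of windows), TGTGGT (read by RUNX factors, 14.0%) or TGACAG (read by MEIS factors, 15.9%), each searched on both strands. AACNG (read by MYB, with N any letter), found in 74.2% of all windows, had 1 match in the Slamf1 window and 0 in the Kit window. These are matches of letters in 1 window and not sites of binding.

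Other genes of stem cell surfaces were lower more often than higher. Of 20 listed receptors and antigens 14 were tested, 1 was higher and 10 were lower, with a median log2 fold change of -2.86, beside 23.9% and 29.0% of all genes. Among the 14, Cd34, Ly6a and Thy1 passed the filter through NC alone and had to be lower to be tested. Itga2b, the platelet integrin chain CD41 that early blood progenitors also carry, was the one that rose, at 244, 33.3 and 52.0 CPM in AEL and 14.5 to 22.6 CPM in NC, and it was highest in AEL replicate 1 as Slamf1 was. Its call (log2 fold change 2.51, SE 0.75, edgeR adjusted p = 0.0283) ended without any single NC replicate (adjusted p = 0.0903 to 0.114). Cd38 was at 0 to 2.28 CPM in AEL and 26.1 to 33.6 CPM in NC. The myeloid growth factor receptors Csf1r and Csf3r, at 0.563 to 14.5 and 0 to 16.1 CPM in AEL, were at 153 to 194 and 114 to 147 CPM in NC, and they are also markers of monocytes and neutrophils, whose sums were lower in AEL as given above. The Csf3r call ended without any single NC replicate (edgeR adjusted p = 0.0627 to 0.0677). Cd34, Flt3 and Ly6a, classical antigens of mouse stem cells and progenitors that were picked after their values were seen, were scarce in both groups, at 0 to 0.760, 0.338 to 1.41 and 0 to 0.434 CPM in AEL and at 3.61 to 6.10, 3.35 to 4.72 and 2.88 to 3.07 CPM in NC, and all 3 fell. The Flt3 call (edgeR adjusted p = 0.0177) ended without any single NC replicate (0.0571 to 0.0785). Leaving out NC replicate 1, 2 or 3, where fewer genes passed the filter, gave 5, 5 and 4 lower receptors, or 9, 8 and 8 with the same genes tested.

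Genes that act with KIT went both ways. Of 20 tested, 6 were higher and 4 lower, beside 23.9% and 29.0% of all genes, with a median log2 fold change of -0.08. Kitl, which encodes the ligand of KIT, was at 0, 0.217 and 0.0915 CPM in AEL, from 3 counts in all, and at 13.2, 14.3 and 15.1 CPM in NC. Kitl and Socs1 passed the filter through NC alone and had to be lower in AEL. Grb2, the adaptor that links KIT to RAS, was 3.88-fold higher at 585 ± 45.0 CPM in AEL against 151 ± 8.26 CPM in NC (SD, n = 3; edgeR adjusted p = 0.000106). Stat5a, a transcription factor activated by KIT and the erythropoietin receptor, was 3.87-fold higher at 299 ± 64.3 CPM against 77.2 ± 6.24 CPM (SD, n = 3; edgeR adjusted p = 0.000411). Ptpn6, the phosphatase SHP-1 that dampens KIT signaling, fell by 1.79 on the log2 scale (SE 0.15), from 144 to 172 CPM in NC to 39.3 to 52.1 CPM in AEL. The other genes that fell, picked for being few, were the adaptor Shc1, at 115 to 196 CPM in AEL and 243 to 266 CPM in NC, and the inhibitor Socs1, at 0.0915 to 0.900 and 2.24 to 2.71 CPM. The call of Shc1 ended without AEL replicate 1 or NC replicate 2 or 3 (edgeR adjusted p = 0.0513 to 0.0564), and that of Socs1, with the same genes tested, without any single NC replicate (0.0552 to 0.0631). Leaving out NC replicate 1, 2 or 3 gave 2, 1 and 1 lower genes, or 3, 2 and 2 with the same genes tested.

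Of 8 other tested SLAM relatives, ligands and adaptors 0 were higher and 6 were lower, beside 23.9% and 29.0% of all genes. Of these 8, the 5 genes Slamf6, Slamf7, Slamf9, Cd2 and Sh2d1b1 passed the filter through NC alone and had to be lower in AEL to be tested, so the count does not describe the family. Of the other 3, Ly9 was lower (edgeR adjusted p = 0.000276) and Cd84 and Cd244 did not pass. Ly9 (CD229), its neighbour in the cluster, was at 0.225 to 1.19 CPM in AEL and 43.3 to 50.9 CPM in NC, and Slamf6 at 0.113 to 0.217 against 8.51 to 13.4 CPM. Cd2, a ligand of CD48 on T cells, had 1 count in the AEL libraries together, where NC had 3.19 to 4.26 CPM. Cd244, the main receptor for CD48, was at 0 to 1.30 CPM in AEL and 2.19 to 2.95 CPM in NC, and did not pass (log2 fold change -2.22, SE 0.90, edgeR adjusted p = 0.0755). It passed with limma on log2(CPM + 1) (adjusted p = 0.0126) and without AEL replicate 2 (adjusted p = 0.0049). The listed T and NK cell markers, of which 7 were found, summed to 0.450 to 1.84 CPM in AEL and 27.1 to 30.0 CPM in NC beside these falls, and their part was not tested. Only 3 of these 8 genes passed the filter when an NC replicate was left out, with 1 lower each time. With the same genes tested 6 were lower without NC replicate 1, 2 or 3, including the 5 whose direction the filter had fixed.

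Among the transcription factors, Myb (chromosome 10, 21124935 to 21160984, minus strand) had the highest mean level per kilobase of the 9 genes in AEL and the smallest adjusted p, although Cd48 exceeded it in AEL replicate 1, at 70.1 against 38.5 RPKM (CPM per kilobase of exon). The AEL libraries held 344, 520 and 432 CPM and the NC libraries held 97.1, 104 and 98.3 CPM. Even the lowest AEL library was 3.45 times the NC mean. The log2 fold change was 2.11 (SE 0.17, edgeR adjusted p = 0.000266), and it ranged from 2.01 to 2.35 when any 1 library was left out. Runx1 (chromosome 16, 92601466 to 92826149, minus strand) was at 186, 135 and 111 CPM in AEL and 56.1, 51.1 and 59.4 CPM in NC. It was highest in AEL replicate 1, and the log2 fold change was 1.37 (SE 0.20, edgeR adjusted p = 0.00198); it ranged from 1.22 to 1.58 when any 1 library was left out.

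Hoxa9 (chromosome 6, 52223100 to 52231089, minus strand) went the other way. In AEL it had 0, 1 and 0 counts in replicates 1, 2 and 3, and in NC it had 28, 14 and 14 counts, or 3.61, 1.65 and 1.61 CPM. Hoxa9 was scarce in NC too, and it passed the filter through NC alone, so it had to be lower in AEL to be there at all. Over the summed counts its level was 65.3 times higher in NC, with an exact 95% interval of 11.2 to 2624 that covers counting error only (log2 fold change -5.57, SE 0.89, edgeR adjusted p = 0.00257). Without NC replicate 1, 2 or 3 Hoxa9 no longer passed the filter. With the same genes tested its edgeR adjusted p was 0.0111 to 0.0124, but its direction was again fixed by the filter of all libraries.

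Meis1, the partner of HOXA9 (chromosome 11, 18879817 to 19018985, minus strand), had 0, 0 and 11 counts in AEL and 7, 17 and 11 counts in NC. AEL replicate 3, at 1.01 CPM, lay within the NC range of 0.903 to 2.01 CPM, and the other AEL libraries had no count, which allows up to 0.338 and 0.326 CPM (3 counts). The log2 fold change was -1.91 (SE 1.11), which did not pass (edgeR adjusted p = 0.186). It passed without AEL replicate 3 when the same genes were tested (-6.59, adjusted p = 0.00857) and with limma voom and a weight for each group (-3.23, adjusted p = 0.0271). Sox4 (chromosome 13, 28948919 to 28953713, minus strand) did not pass either, with 8.10, 2.17 and 14.8 CPM in AEL and 7.61, 15.1 and 17.0 CPM in NC, for which the fit gave -0.66 on the log2 scale (SE 0.66, edgeR adjusted p = 0.428). AEL replicate 2 lay below all NC libraries and the other AEL libraries lay among them. A noncoding RNA gene on the other strand, Gm26735, covers 54.6% of the exon bases of Sox4, and reads of these genes cannot be told apart unless the counting used strand, which is not given in the sources used here.

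The promoters of the 3 transcription factors that changed are shown for the same GGAA letters, because they differ widely in base composition. The Myb window was 81.2% G and C with 1 match. The proximal Runx1 start had 6 matches, 1 of them within CCGGAA, and was 67.6% G and C, and the Hoxa9 window had 9 matches at 49.6% G and C. Runx1 has a second, distal start with 4 matches, which is not shown. The windows are chr10:21160985-21161234 for Myb, chr16:92697330-92697579 for Runx1 and chr6:52227371-52227620 for Hoxa9, all on the minus strand and written in the direction of the gene.
Myb: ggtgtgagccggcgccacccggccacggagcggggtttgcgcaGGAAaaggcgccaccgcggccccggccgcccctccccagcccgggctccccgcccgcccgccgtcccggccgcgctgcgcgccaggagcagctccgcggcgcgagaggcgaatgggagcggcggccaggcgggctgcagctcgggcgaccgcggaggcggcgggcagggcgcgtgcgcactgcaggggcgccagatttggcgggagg
Runx1: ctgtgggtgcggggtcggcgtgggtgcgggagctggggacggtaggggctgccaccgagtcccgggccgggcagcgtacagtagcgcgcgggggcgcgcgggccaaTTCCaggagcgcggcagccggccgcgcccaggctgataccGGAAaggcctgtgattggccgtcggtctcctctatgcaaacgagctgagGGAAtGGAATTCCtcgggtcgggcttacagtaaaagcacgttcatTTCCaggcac
Hoxa9: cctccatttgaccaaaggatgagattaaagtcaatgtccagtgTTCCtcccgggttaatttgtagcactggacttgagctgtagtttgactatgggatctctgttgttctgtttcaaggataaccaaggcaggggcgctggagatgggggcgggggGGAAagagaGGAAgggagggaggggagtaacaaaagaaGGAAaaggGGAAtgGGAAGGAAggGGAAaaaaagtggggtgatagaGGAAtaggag
Of the genes that did not pass the test, Cd48 had 2 matches, Meis1 3 and Sox4 6. The windows of Msi2, at 3 neighbouring start sites, had 0. Whether the number of matches bears on the direction of these genes was not tested.

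**Figure D3:**
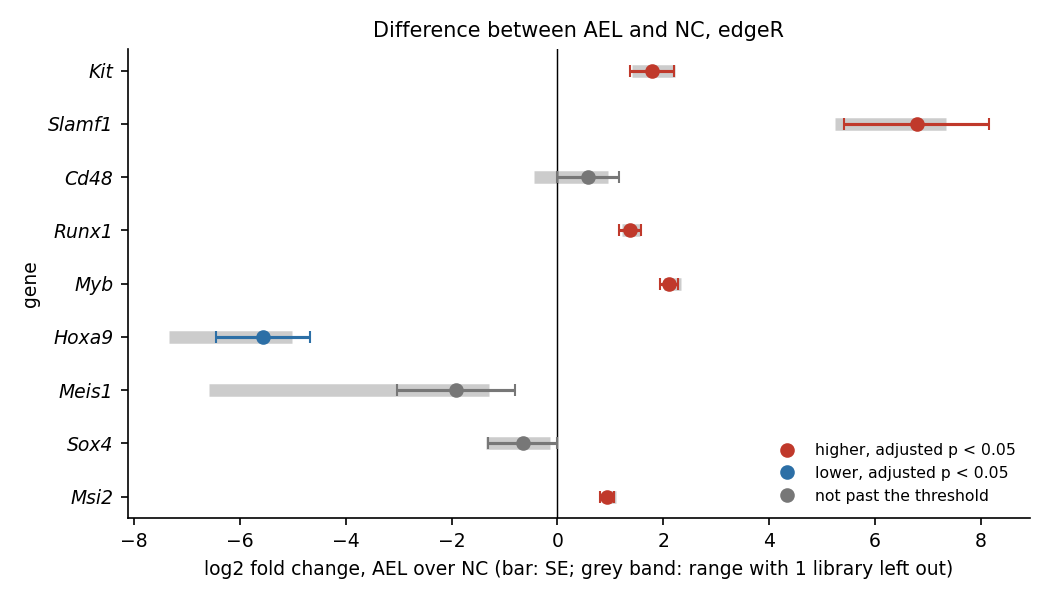
Log2 fold change of AEL over NC for each gene (points) with its SE (bars), from edgeR. Grey bands give the range of the fold change when 1 library is left out and the same 12427 genes are tested. The bands of Kit, Slamf1, Runx1, Myb and Msi2 stay above 0 and that of Hoxa9 below it, whereas the band of Cd48 runs from -0.44 to 0.96 and that of Meis1 from -6.59 to -1.30. The directions of Slamf1 and Hoxa9 were fixed by the filter, which each passed through 1 group alone.

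Of 12 tested genes of the RUNX and core binding factor list, the partners of RUNX1, 6 were higher, 2 were lower and 4 did not pass. Of all genes 23.9% were higher and 29.0% lower. The median log2 fold change of the 12 was 0.84. Cbfb, the subunit that RUNX proteins need to hold DNA firmly, was 4.32-fold higher at 147 ± 41.5 CPM against 34.0 ± 3.35 CPM (SD, n = 3; edgeR adjusted p = 0.000764). Cbfa2t3 (ETO2), a corepressor of the erythroid TAL1 complex, rose 5.18-fold (edgeR adjusted p = 0.00061). Cdk6, a cell cycle kinase that binds RUNX1, was at 439, 682 and 665 CPM in AEL against 77.0 to 96.9 CPM in NC. Runx2, better known from bone, was at 52.1, 14.3 and 47.0 CPM in AEL and 9.80 to 11.3 CPM in NC, a call (edgeR adjusted p = 0.0149) that ended without any single NC replicate (0.0626 to 0.0709). The genes that fell, picked for being few, were Runx1t1 (ETO), which passed the filter through NC alone, at 0 in every AEL library and 2.01 to 5.07 CPM in NC, and the kinase Hipk2, at 31.9 to 97.0 CPM in AEL and 149 to 233 CPM in NC, whose call ended without NC replicate 3 (edgeR adjusted p = 0.0599). Leaving out NC replicate 1, 2 or 3 gave 1, 1 and 0 lower genes, or 2, 2 and 1 with the same genes tested.

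Of 8 tested genes related to MYB 2 were higher and 2 lower, beside 23.9% and 29.0% of all genes. Their median log2 fold change was 0.08. Mybl2 (B-MYB), the cell cycle relative of MYB, was lower at 88.2 to 110 CPM in AEL against 201 to 222 CPM in NC (log2 fold change -1.04, SE 0.12, edgeR adjusted p = 0.000951), so the paralogs moved in opposite directions. Mybbp1a, a nucleolar protein that binds MYB, rose 4.04-fold (edgeR adjusted p = 0.000563). Ep300, the acetyltransferase that MYB recruits, rose by 0.59 on the log2 scale (SE 0.15, edgeR adjusted p = 0.0177). That call ended without NC replicate 1 or 2 (0.0949 and 0.0951). Taf12, a TFIID subunit, fell by 0.57 on the log2 scale (SE 0.13, edgeR adjusted p = 0.0099). The number higher was 1 without NC replicate 1 or 2.

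Of 34 listed HOX, MEIS, PBX and menin-MLL genes 14 were tested, 5 were higher and 2 lower, beside 23.9% and 29.0% of all genes. Their median log2 fold change was -0.19. No other HOX gene was among those tested. Of the PBX cofactors with which HOX proteins bind DNA, Pbx3 rose 1.66-fold (edgeR adjusted p = 0.03) and Pbx4 1.92-fold (0.0366). The calls of Pbx3 and Pbx4 ended without NC replicate 1 or 2 (0.106 to 0.153). The Pbx3 call also ended without NC replicate 3 (0.0997) and that of Pbx4 without AEL replicate 3 (0.0634). Kmt2a (MLL1), the methyltransferase that maintains HOX expression, was at 120, 209 and 92.8 CPM in AEL and 58.4 to 76.9 CPM in NC, a call (edgeR adjusted p = 0.0238) that ended without any single NC replicate (0.0688 to 0.11). Aff4, a scaffold of the super elongation complex, rose 3.24-fold (edgeR adjusted p = 0.000311). Meis3 and Mllt1 were picked for being among few genes called: Meis3, a relative of Meis1, was at 0 in every AEL library and 2.07 to 3.61 CPM in NC and passed the filter through NC alone, and Mllt1 (ENL) was at 80.4 to 121 CPM in AEL and 48.7 to 64.7 CPM in NC, a call that was lost without NC replicate 1 or 2 (edgeR adjusted p = 0.0694 and 0.0538). The number higher was 1, 1 and 3 and the number lower 1, 1 and 0 without NC replicate 1, 2 and 3.

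Msi2 (chromosome 11, 88339382 to 88718513, minus strand) had the smallest spread of the 9 genes in AEL. It was at 102, 127 and 119 CPM in AEL and 55.2, 64.6 and 62.1 CPM in NC. All AEL libraries lay above NC, and the log2 fold change was 0.94 (SE 0.13, edgeR adjusted p = 0.00174). Among 10 tested RNA-binding proteins and targets of the Musashi and progenitor list 5 were higher and 1 lower, beside 23.9% and 29.0% of all genes. Their median log2 fold change was 0.66. Igf2bp3, an mRNA-binding protein, was at 6.51 to 44.1 CPM in AEL and 0.258 to 0.472 CPM in NC, and since it reached 1 CPM in AEL alone it had to be higher there to be tested. Hmga2, a chromatin protein of fetal stem cells, rose 11.9-fold (edgeR adjusted p = 0.000932). Pum2, a translational repressor, rose 1.73-fold (edgeR adjusted p = 0.00218). Numb, a target of Musashi proteins, did not pass (log2 fold change 0.54, SE 0.21, edgeR adjusted p = 0.0648), with 22.1 to 27.3 CPM in AEL and 13.9 to 18.2 CPM in NC; it passed with library totals alone (0.0247) and without AEL replicate 1 or 2 (0.0382 and 0.0374). The 1 lower gene, picked for that, was Lin28a, a fetal RNA-binding protein, at 0, 2.28 and 0 CPM in AEL and 7.86 to 10.8 CPM in NC (edgeR adjusted p = 0.0498). It was not called without AEL replicate 1 or 3, without any single NC replicate, with library totals, no filter or a robust fit.

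Relatives of SOX4 were few: of 9 listed 3 were tested, 1 was higher and 1 lower, beside 23.9% and 29.0% of all genes. Sox6, which acts in red cell maturation, was at 150, 53.0 and 61.3 CPM in AEL and 189 to 218 CPM in NC, a call (log2 fold change -1.19, SE 0.39, edgeR adjusted p = 0.0387) that ended without AEL replicate 2 or 3 (0.0561 and 0.0916), without any single NC replicate (0.0913 to 0.109) and with library totals alone (0.0533). Sox12 did not pass (edgeR adjusted p = 0.364, and 0.0413 without AEL replicate 3). Sox5, the gene that was higher, was picked for that, at 5.10 to 10.1 CPM in AEL and 1.55 to 3.07 CPM in NC (edgeR adjusted p = 0.0138, and 0.072 and 0.0705 without NC replicate 1 and 3).

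Of 18 other tested stem cell transcription factors 7 were higher and 5 lower, beside 23.9% and 29.0% of all genes. Their median log2 fold change was 0.23. Gata2, which early progenitors express and which GATA1 replaces during red cell maturation, rose 43.0-fold, from 10.3 to 10.9 CPM in NC to 382, 430 and 568 CPM in AEL (edgeR adjusted p = 4.27e-05). Tcf15, a factor linked to stem cell quiescence, was at 60.9, 20.1 and 75.3 CPM in AEL and 0.354 to 0.516 CPM in NC, and it too passed the filter through AEL alone. Spi1 (PU.1) and Cebpa, the main myeloid factors, were lower, at 0.788 to 15.2 and 0.113 to 6.19 CPM in AEL against 72.6 to 99.7 and 32.1 to 43.5 CPM in NC, beside the lower sums of neutrophil and monocyte markers given above. The Cebpa call (edgeR adjusted p = 0.012) ended without NC replicate 2 or 3 (0.0527 and 0.052), and the number lower was 3 without either of them. The other genes that fell, picked for being few, were Fli1, the ETS relative of ERG, at 0.225 to 2.71 CPM in AEL and 13.2 to 24.8 CPM in NC, Gfi1, which passed the filter through NC alone, at 0.225 to 0.543 and 7.32 to 9.56 CPM, and Egr1, at 6.29 to 14.4 and 46.7 to 59.1 CPM. Tal1 and Lmo2, the core of the stem cell and erythroid complex, picked after their values were seen, did not pass, at 304 to 514 and 472 to 684 CPM in AEL against 477 to 538 and 510 to 533 CPM in NC. Over all lists 107 genes were tested, 33 were higher and 33 lower, that is 61.7% called beside 52.8% of all genes. Of the 107, 2 passed the filter through AEL alone and 13 through NC alone.

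**Figure D4:**
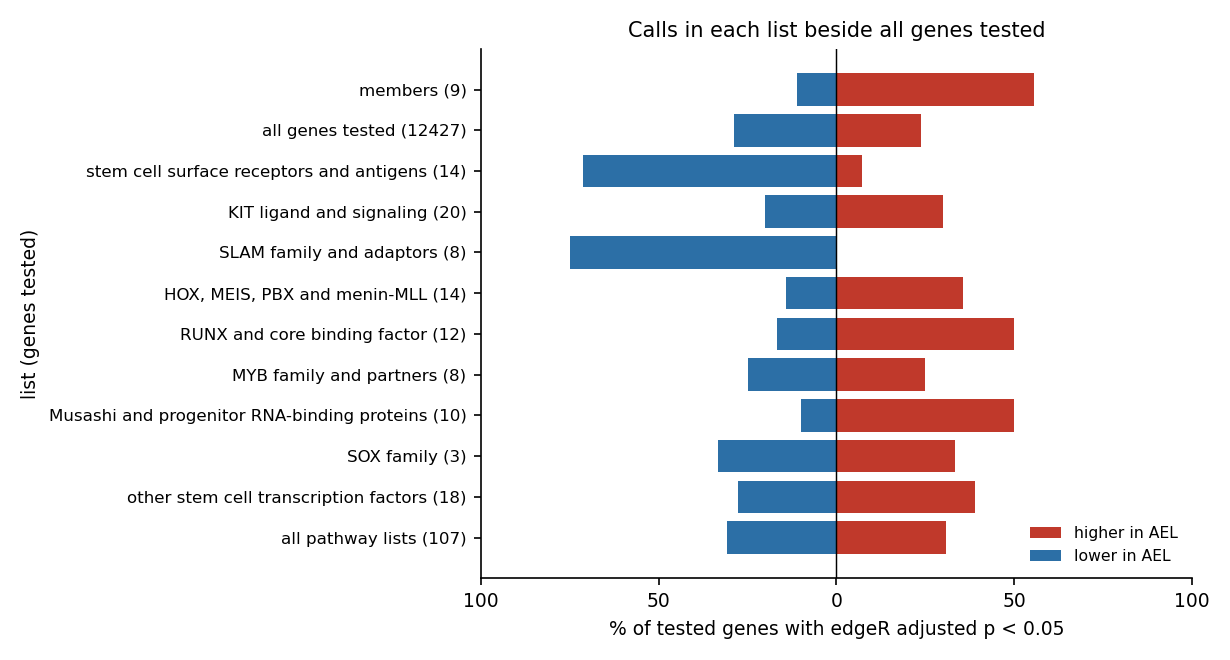
Share of the tested genes of each list with an edgeR adjusted p under 0.05, higher in AEL to the right (red) and lower to the left (blue), in percent, beside the 9 genes and all 12427 genes tested; numbers in brackets are genes tested. The lists of surface receptors and of the SLAM family lie more to the left, with 10 of 14 and 6 of 8 genes lower, of which 3 and 5 reached 1 CPM in NC alone, and the RUNX list lies more to the right than to the left, with 6 of 12 higher and 2 lower.

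Levels of different genes are compared per kilobase of merged exon (RPKM). In NC the order was Cd48 at 22.8 ± 1.96, Myb at 11.2 ± 0.409, Msi2 at 5.83 ± 0.469, Runx1 at 4.62 ± 0.346, Kit at 4.43 ± 0.365, Sox4 at 2.76 ± 1.04, Hoxa9 at 0.411 ± 0.205, Meis1 at 0.132 ± 0.0535 and Slamf1 at 0.0854 ± 0.0167 RPKM (SD, n = 3). Neighbours in that order overlapped between libraries for 2 pairs, Runx1 with Kit and Meis1 with Slamf1. In AEL Myb came first at 48.3 ± 9.81 RPKM, followed by Cd48 at 34.0 ± 31.3, Kit at 15.3 ± 8.29, Runx1 at 12.0 ± 3.17, Msi2 at 11.2 ± 1.22, Slamf1 at 9.63 ± 11.5, Sox4 at 1.74 ± 1.32, Meis1 at 0.0318 ± 0.0552 and Hoxa9 at 0.00648 ± 0.0112 RPKM (SD, n = 3). All neighbours in AEL overlapped between libraries except Sox4 and Meis1. By group means Slamf1 thus moved from last place in NC to the sixth in AEL. That place held in AEL replicate 2 but not in the other AEL libraries. In AEL replicate 1 Slamf1 was at 22.6 RPKM, above Kit, Runx1 and Msi2. In AEL replicate 3 it was at 0.802 RPKM, below Sox4 at 3.09 RPKM. Because the filter fixed the direction of Slamf1, its rise in this order is not a separate result.

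The spread within AEL also separated the genes. The coefficient of variation over the AEL libraries was 10.9% for Msi2, 20.3% for Myb and 26.5% for Runx1. It was 54.3% for Kit, 75.7% for Sox4, 92.1% for Cd48 and 119% for Slamf1. NC gave 3.66% to 8.60% for Myb, Runx1, Msi2, Kit and Cd48. Spread was wider there for Slamf1, at 19.6%, and for Sox4, at 37.6%. Genes with the profile most like each of them over the 6 libraries were found by the root mean square distance of log2(CPM + 1), centred on each gene, among tested genes whose mean was at least 10 CPM. Podxl (distance 0.32) and Dnah12 (0.54) lay nearest to Slamf1: Podxl was at 154, 21.7 and 6.31 CPM in AEL and 0.387 to 0.691 CPM in NC. Nearest to Kit were Plekha8 (0.12) and Taf4b (0.20), and nearest to Cd48 were Kcnk5 (0.17) and Dqx1 (0.27), with Kcnk5 at 60.2, 10.2 and 11.9 CPM in AEL and 18.5 to 20.5 CPM in NC. For Myb they were Orai2 (0.076) and Sec31a (0.10), for Msi2 Zbtb41 (0.047) and Zfp408 (0.050), and for Runx1 Rusc1 (0.099) and a gene whose name the table turned into a date. Cenpk (0.20) and Mrpl14 (0.21) lay nearest to Hoxa9, Siah1b (0.21) and Zak (0.22) to Meis1, and Reep3 (0.26) and Lmnb2 (0.35) to Sox4. At the low levels of Hoxa9 and Meis1 this scale compresses their differences, so those genes share the direction and not the fold. Among the 9 genes the closest pairs were Runx1 with Msi2 (0.37) and Kit with Myb (0.50), and Slamf1 lay farthest from the rest, at 1.81 or more.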

How the data were processed

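RNA sequencing of 3 AEL and 3 NC samples was analysed from a single table. It holds read counts per gene that the authors deposited: whole numbers with differing library totals, although the name of the table says CPM. The submitters' processing notes name mm10 and edgeR 3.32.1 without saying what each was used for, and which aligner and counter were used, and whether by strand, is not given in the sources used here.

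Genes reaching 1 CPM in 3 or more libraries (12427 of 13007) were tested with edgeR 4.0.16 (R 4.3.3; quasi-likelihood test, TMM scaling, group as the only term, Benjamini-Hochberg threshold 0.05), a script also tested on simulated data. CPM are counts over library totals times TMM factors. The SE is the absolute log2 fold change over the square root of the F statistic. A count of 0 allows up to 3 counts, or 0.274 to 0.387 CPM. Exon lengths and gene positions are from GENCODE M21 (GRCm38, the assembly of mm10). Alternatives were limma 3.58.1, DESeq2 1.42.0 (which gave 26 genes no adjusted p), other scalings and filters, a robust fit, a replicate block and leaving out each library. Leaving out each library while keeping the genes tested ("the same genes tested") was chosen after seeing the data. The 9 genes and all lists were chosen with earlier results of these data known. Named by rule are the 9 genes, their partners Kitl, Cd244, Cd2, Pbx3, Cbfb, Mybl2, Numb, Sox12, Gata2 and Erg, from each list up to 4 called genes of largest change whose higher group averaged at least 10 CPM, and the 2 nearest profiles of each of the 9 genes. Some genes that the rule names are not reported here.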

Additional observations from a re-analysis of the deposited data

How the results depend on the processing

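Over the 11 planned settings of scaling, filter, test and block, and 6 that leave out a library, the 9 genes gave 142 values, of which 137 kept direction and call. Of the rest, Kit lost its call without each NC replicate, Cd48 turned to -0.41 without AEL replicate 1, and Meis1 passed with group weights; the 54 values added with the gene filter of all libraries hold 3 such changes, including Cd48 at -0.44 without AEL replicate 1. Some values could not be had: at a mean count of 50 or more Hoxa9 and Meis1 were not tested, which left 0 of the 9 genes lower and 18 pathway genes lower, with 5 of 8 tested surface receptors and 1 of 2 tested SLAM genes. With limma voom and group weights 2 of the 9 genes were lower. When 1 library was left out, the 9 genes gave 4 higher and 0 to 1 lower, the pathway genes 21 to 35 higher and 11 to 37 lower, and all genes 1672 to 3253 higher and 1780 to 3834 lower. The 4 higher lacked Slamf1 without any single AEL replicate, because it was then not tested, and lacked Kit without any single NC replicate. The log2 fold change of Cd48 then ran from -0.41 to 0.98. With the same genes tested, all genes gave 1915 higher without NC replicate 1 and 1972 without NC replicate 2, and the 9 genes gave 2 lower without AEL replicate 3. The low ends come from leaving out an NC library. Fewer genes passed the filter there, but with the same genes tested the pathway genes still gave 21 higher without NC replicate 1, beside 33 with all libraries. With a replicate block 2241 genes were higher and 3238 lower and no call of the 9 genes changed, while of the list genes named above Pbx3, Pbx4, Ep300, Sox5 and Lin28a were no longer called; but the numbers do not pair the libraries: deviations of same-numbered libraries correlated at 0.082, -0.017 and -0.031. Depth limits Hoxa9 and Meis1, at 1 and 11 counts in AEL.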
